A study of Mus musculus with 24 samples.

Results

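The 8 genes described here belong to the synthesis of cholesterol and its control: Hmgcs1, Idi1, Fdft1, Sqle, Lss and Cyp51, which encode 6 enzymes of the pathway, and Insig1 and Srebf2, which encode 2 of its regulators. They were chosen by name, as the rows of a lung count table whose gene identifiers carry these symbols, and they are 8 of the 78275 genes in the table. All 8 were among the 17490 genes with enough counts to be tested. No receptor or transporter that takes up cholesterol is among them, so uptake is touched only through the shared control by Srebf2. On GRCm38, to which the identifiers were matched, the annotation places Hmgcs1 (ENSMUSG00000093930) at chr13:119690379-119708260 and Idi1 (ENSMUSG00000058258) at chr13:8885501-8892451. It places Fdft1 (ENSMUSG00000021273) at chr14:63145150-63179578 and Sqle (ENSMUSG00000022351) at chr15:59315077-59331192. It has Lss (ENSMUSG00000033105) at chr10:76531588-76557138 and Cyp51 (ENSMUSG00000001467) at chr5:4081145-4104746. The regulators are Insig1 (ENSMUSG00000045294) at chr5:28071363-28078662 and Srebf2 (ENSMUSG00000022463) at chr15:82147181-82205379. All 8 are annotated as protein coding, Fdft1 and Cyp51 on the minus strand and the rest on the plus strand.

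Cells make cholesterol from acetyl-CoA by way of mevalonate, isoprenoid units, squalene and lanosterol. When membrane sterol is low, the precursor protein encoded by Srebf2 is escorted to the Golgi and cut there, and its freed end enters the nucleus and raises transcription of the enzymes, of Insig1 and of Srebf2 itself. When sterol is ample, INSIG1 holds the escort complex in the endoplasmic reticulum. In lung, sterol is a component of surfactant, which alveolar type 2 cells secrete, and alveolar macrophages clear it.

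The data are poly(A)-selected, strand-specific RNA sequencing libraries from whole lung, 24 in all in 8 groups of 3. The mice were males of the strain C57BL/6, and their labelled age is 20 weeks. DE mice breathed diesel exhaust for 30 min per day on 5 days per week for about 8 weeks, a model of lung fibrosis. DE+PFD mice were exposed and received the antifibrotic drug pirfenidone orally on 6 days of the week, in a daily dose of 300 mg/kg and a vehicle of 0.5% carboxymethylcellulose. RIC+DE mice received remote ischemic conditioning before the exposure and DE+RIC mice during it: 3 cycles on the left leg, each 5 min of blocked and 5 min of restored blood flow, on 3 days per week for 4 weeks. The groups RIC+DE+PFD and DE+PFD+RIC combined the drug with conditioning, before the exposure in RIC+DE+PFD and during it in DE+PFD+RIC. RIC mice were healthy and conditioned, and C mice were healthy and untreated. No group is labelled as given the carboxymethylcellulose alone, so drug and vehicle cannot be told apart.

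The labels give each library a batch that is a date, in March for 9, in October for 14 and in November for 1, and do not say what the date marks. All 3 RIC+DE libraries are from March and all 3 DE libraries from October, and the November library is DE+RIC 3. Total counts ran from 3906807 to 18494156, with 12224106 to 16925635 in March and 3906807 to 11298160 in October. RIC+DE+PFD 1 stood apart on the first principal component (28.5% of the variance) and DE 1 on the second (11.1%), so the median fold changes of the 8 genes in comparisons that include them are given without them too. Levels are CPM, the counts of a gene relative to all counts of its library, scaled between libraries by the TMM method. Whether the 3 libraries of a group come from separate mice is not stated for each, so p-values measure the spread between these libraries.

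The promoters of 6 of the 8 genes could be read from RefSeq on GRCm38.p6, in windows from 250 bases before to 50 bases after the start used there. For all 6 that start differs from the end of the gene given by the annotation above. They are shown for Hmgcs1 and Lss, a pair of enzyme genes whose levels went closely together between libraries (below), and for Srebf2, whose level went least with the rest. Capitals mark 2 motifs, each searched on both strands: the core of the sterol regulatory element, TCACNCCAC, at which the SREBP proteins bind, and the CCAAT box, CCAAT or ATTGG on the other strand, to which their partner NF-Y binds. The windows are chr13:119690101-119690400, chr10:76531355-76531654 and chr15:82147019-82147318, all on the plus strand.
Hmgcs1: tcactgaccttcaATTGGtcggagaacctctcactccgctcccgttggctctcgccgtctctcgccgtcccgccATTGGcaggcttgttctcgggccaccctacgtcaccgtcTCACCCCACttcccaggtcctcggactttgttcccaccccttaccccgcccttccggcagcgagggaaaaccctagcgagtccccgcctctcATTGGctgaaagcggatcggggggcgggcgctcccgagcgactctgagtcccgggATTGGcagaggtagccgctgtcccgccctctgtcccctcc
Lss: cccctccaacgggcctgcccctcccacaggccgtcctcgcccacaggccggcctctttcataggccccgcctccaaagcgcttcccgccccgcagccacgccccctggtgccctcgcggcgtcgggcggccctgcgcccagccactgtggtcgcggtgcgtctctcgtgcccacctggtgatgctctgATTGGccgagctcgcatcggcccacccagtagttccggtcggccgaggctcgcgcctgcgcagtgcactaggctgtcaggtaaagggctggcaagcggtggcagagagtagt
Srebf2: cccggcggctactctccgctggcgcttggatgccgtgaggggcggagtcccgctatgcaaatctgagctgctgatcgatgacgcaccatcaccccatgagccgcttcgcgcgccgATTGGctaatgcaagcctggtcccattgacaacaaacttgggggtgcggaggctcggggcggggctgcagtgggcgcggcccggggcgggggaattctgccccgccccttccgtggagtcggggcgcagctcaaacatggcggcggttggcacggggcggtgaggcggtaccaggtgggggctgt
The Hmgcs1 window held 1 sterol regulatory element core, beginning 137 bases before the start used for the window, and 4 CCAAT boxes. The Lss and Srebf2 windows held 1 CCAAT box each and no match to the core as spelled. Among all 6 windows the core was found in that of Hmgcs1 alone, and it was found in 1.24% of the 32851 promoters of the same length. A CCAAT box was present in all 6, against 37.4% of all promoters. At least 2 boxes were present in Hmgcs1 and Idi1, against 11.7% of all promoters, and at least 3 in Hmgcs1, against 3.37%. These matches describe letters and not binding.

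All 8 genes were expressed in every library, at levels that differed more between genes than between groups. Per kilobase of exon, the median level over the 24 libraries was 23.8 CPM for Insig1, 21.9 for Srebf2 and 18.4 for Hmgcs1, the enzyme that makes HMG-CoA. On the same scale it was 12.1 CPM for Fdft1, which makes squalene, 8.61 for Cyp51, which demethylates lanosterol, and 6.89 for Sqle, which oxidises squalene. It was 3.35 CPM per kilobase for Idi1, which interconverts the isoprenoid units, and 2.55 for Lss, which closes the sterol rings. The length joins the exons of all annotated transcripts, 10787 bases for Lss and 3505 for Idi1, so the order of the genes depends on it. Without division by length the median was 27.5 CPM for Lss and 11.7 CPM for Idi1. The smallest count of a member in any library was 26 reads, for Idi1 in DE+PFD 2. In CPM, the highest library was between 1.85 times (Srebf2) and 2.96 times (Insig1) the lowest, whereas the highest group mean was between 1.31 times (Fdft1) and 1.60 times (Idi1) the lowest.

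**Figure D1:**
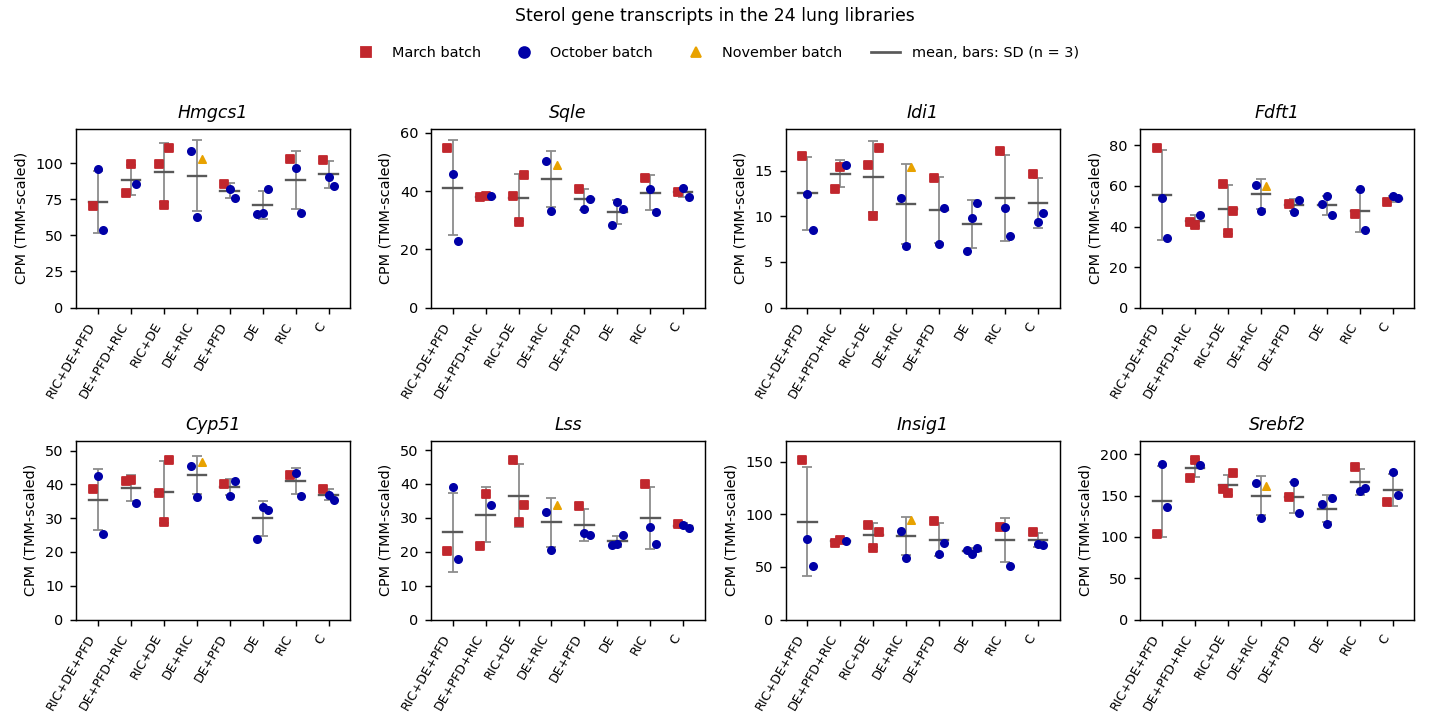
CPM of each of the 8 genes in every library, 1 panel per gene, with a point per library coloured by its labelled batch, a line at the mean of each group and bars of 1 SD (n = 3). DE, all from October, has the lowest mean for 7 of the 8 genes as plotted, with no adjustment for date. In most of the pairs of groups compared, the libraries overlap for most of the 8 genes. In DE against C and in DE+PFD+RIC against DE they overlap for 3 of the 8.

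Before any adjustment for date, the mean of the DE group, whose libraries are all from October, was the lowest of the 8 groups for 7 of the 8 genes. The exception was Fdft1, whose lowest mean was that of DE+PFD+RIC, at 42.9 ± 2.59 CPM (SD, n = 3). With the date as a term in the model, DE had the lowest estimate for 5 of the 8: Hmgcs1, Idi1, Cyp51, Lss and Srebf2. For Sqle 1 group lay below DE, for Insig1 2 groups and for Fdft1 4 groups. Again before adjustment, the highest mean was in DE+RIC for Sqle, Fdft1 and Cyp51, in RIC+DE for Hmgcs1 and Lss, in DE+PFD+RIC for Idi1 and Srebf2, and in RIC+DE+PFD for Insig1. With the 8 means of a gene in order, 4 of the 56 steps between neighbours were larger than the larger SD of the 2 groups. A test for any difference among the 8 groups (edgeR's quasi-likelihood F test, with the date as a term) gave adjusted p-values of 0.657 for Srebf2 to 0.966 for Idi1. By that test 0 of the 8 genes passed at an adjusted p under 0.05, as did 0 of all 17490 genes (0.0%). None of the 8 had an unadjusted p under 0.05, against 14.3% of all genes. DESeq2 called 1051 genes in the same comparison and 0 of the 8.

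Exposure to diesel exhaust was set against healthy lungs. All 8 genes had log2 fold changes below 0 in DE relative to C, with a median of -0.21, where the median over all genes tested was 0.00. Hmgcs1 had the lowest estimate. Its levels were 64.8, 65.5 and 82.1 CPM in the DE libraries, against 102.5, 90.4 and 84.0 CPM in the C libraries. Every DE library lay below every C library, by a narrow margin at the nearest pair. The log2 fold change was -0.33 ± 0.24 (SE), with an adjusted p of 0.988 by edgeR.

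Cyp51 had 23.9, 33.3 and 32.5 CPM in the DE libraries, against 38.6, 36.7 and 35.5 CPM in the C libraries. The C values lay close together and above all DE values, and the log2 fold change was -0.26 ± 0.20 (SE). Lss averaged 23.0 ± 1.68 CPM in DE lungs and 27.7 ± 0.67 CPM in C lungs (SD, n = 3 each), again without overlap. Sqle averaged 32.8 ± 4.16 CPM in DE lungs and 39.6 ± 1.56 CPM in C lungs. Insig1 averaged 65.4 ± 2.68 CPM in DE lungs and 75.3 ± 6.66 CPM in C lungs, of which C 1 is from March. Its log2 fold change was -0.05 ± 0.25 (SE) with the date in the model and -0.20 without it. With these 5 genes, 5 of the 8 had all DE libraries below all C libraries, against 6.86% of all genes tested. This count carries no adjustment for date, and all DE libraries are from October. The 8 genes went together between libraries (below), so genes counted in this way, here and later, are not independent of each other. The adjusted p-values of the 8 genes were 0.988 to 0.997 by edgeR.

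In the other 3 genes the groups overlapped. Srebf2 had 139.8, 115.5 and 147.5 CPM in the DE libraries, against 142.0, 178.1 and 150.2 CPM in the C libraries, and its log2 fold change was -0.26 ± 0.20 (SE). Idi1 averaged 9.17 ± 2.66 CPM in DE lungs and 11.5 ± 2.77 CPM in C lungs. Fdft1 averaged 50.5 ± 4.73 CPM in DE lungs and 53.7 ± 1.63 CPM in C lungs, and its log2 fold change was -0.05 ± 0.24 (SE). None of the 8 genes had an unadjusted p under 0.05, against 1.95% of all genes higher and 1.38% lower in DE. At an adjusted p under 0.05, edgeR called 0 of all genes (0.0%), whereas DESeq2 called 16, with 0 of the 8 among them. Within the October libraries alone the median log2 fold change of the 8 was -0.26. It was -0.11 without DE 1, the library that stood apart, in which 5 of the 8 genes had the lowest value of the DE group. Without DE 1 the estimate for Idi1 was 0.08.

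The genes around the 8 in the pathway were read from lists of other enzymes, of uptake and SREBP control, of efflux and of fatty acid synthesis. Of the 14 other enzymes of cholesterol synthesis, 9 had log2 fold changes below 0 in DE relative to C, with a median of -0.04. Of the 12 genes tested for uptake and SREBP control, 10 were below 0, with a median of -0.22. Of the 9 LXR targets and efflux genes, 5 were below 0, with a median of -0.11, and of the 11 fatty acid synthesis genes, 5 were below 0, with a median of 0.04. None of these genes passed at an adjusted p under 0.05 by edgeR. The smallest unadjusted p among them was that of Elovl6, a fatty acid elongase, with a log2 fold change of 1.25 ± 0.56 (SE) and an adjusted p of 0.988.

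Because lung is a mixture of cells, fewer cells of a type and less RNA per cell cannot be told apart in these values. Summed levels of 10 markers of alveolar type 2 cells were 31040 to 43300 CPM in DE libraries and 31210 to 37540 CPM in C libraries. Summed levels of 9 adipocyte markers were 269.1 to 2146 CPM in DE libraries and 112.2 to 256.7 CPM in C libraries, with the highest sum in DE 1. All 9 adipocyte markers had log2 fold changes above 0 in DE relative to C, with a median of 2.19, and 7 of the 9 had an unadjusted p under 0.05, against 1.95% of all genes higher. Without DE 1 the sums of the DE group were 269.1 and 579.9 CPM. Of 9 T and B cell markers, all 9 were above 0, with a median log2 fold change of 0.58, and 3 had an unadjusted p under 0.05. Their sums were 342.9 to 706 CPM in DE libraries, with the highest in DE 1, and 184.4 to 421.8 CPM in C libraries. Of 9 mitochondrially encoded mRNAs, all 9 were above 0, with a median of 0.88, and 5 had an unadjusted p under 0.05. None of the markers in these 3 lists passed at an adjusted p under 0.05 by edgeR. The part of these markers and mRNAs in the values of the 8 genes was not tested.

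**Figure D2:**
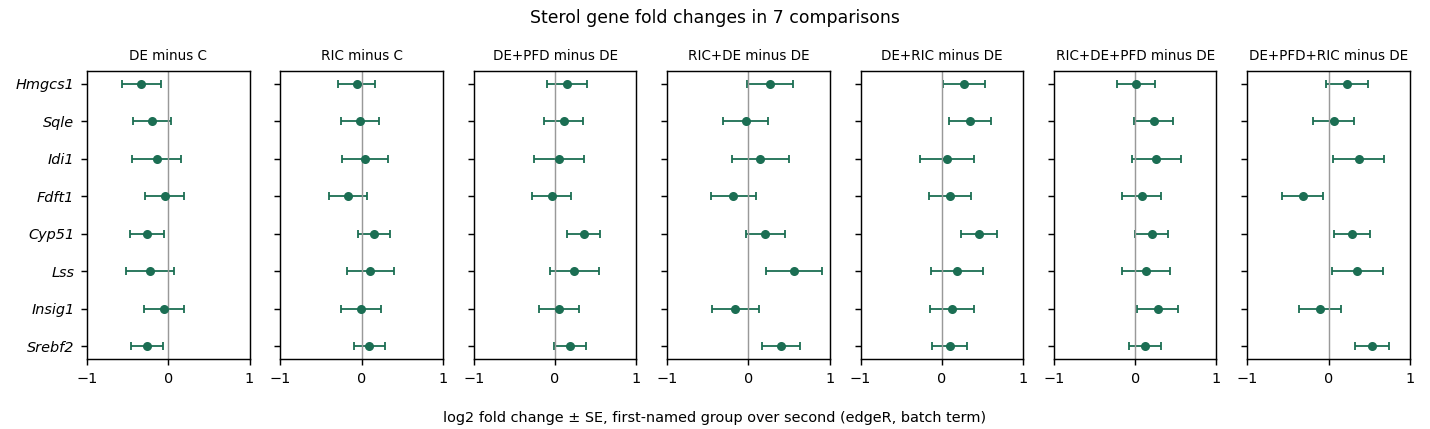
Log2 fold changes of the 8 genes in 7 comparisons, as points with bars of 1 SE, first-named group over the second, from the edgeR model with terms for batch and group. All 8 estimates lie below 0 in DE relative to C, and none of the 8 genes passed at an adjusted p under 0.05 in any of the 7.

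Conditioning alone was set against healthy lungs, and 4 of the 8 genes were above 0 and 4 below in RIC relative to C, with a median log2 fold change of 0.02. Hmgcs1 had 102.8, 96.7 and 65.8 CPM in the RIC libraries, against 102.5, 90.4 and 84.0 CPM in the C libraries. The groups overlapped for all 8 genes, and did not overlap for 2.24% of all genes higher and 2.67% lower. RIC 3 had the lowest value of its group for 7 of the 8, and without it the median log2 fold change was 0.14. By edgeR 0 of the 8 genes passed at an adjusted p under 0.05, as did 0.0% of all genes, and 0 of the 8 had an unadjusted p under 0.05, against 0.606% of all genes higher and 0.589% lower. DESeq2 called 2 genes, with none of the 8 among them.

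Each treatment of exposed mice was set against DE, so the same 3 DE libraries enter all 5 comparisons, as they do DE against C. The 5 sets of values are therefore given side by side and not as repeats of each other. The median log2 fold change of the 8 genes was 0.13 in DE+PFD, 0.18 in RIC+DE, 0.16 in DE+RIC, 0.17 in RIC+DE+PFD and 0.26 in DE+PFD+RIC, each relative to DE. Without DE 1 it was 0.06 in DE+PFD, -0.01 in RIC+DE, 0.14 in DE+RIC, 0.10 in RIC+DE+PFD and 0.13 in DE+PFD+RIC. The medians over all genes tested were between -0.01 and 0.04. By edgeR 0 of the 8 genes passed at an adjusted p under 0.05 in each, as did 0.0% of all genes. DESeq2 called 15 genes in DE+PFD, 55 in RIC+DE, 12 in DE+RIC, 64 in RIC+DE+PFD and 16 in DE+PFD+RIC, with 0 of the 8 in each.

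In DE+PFD, 7 of the 8 genes had estimates above 0. Cyp51 had 40.1, 36.7 and 41.1 CPM in the DE+PFD libraries, against 23.9, 33.3 and 32.5 CPM in the DE libraries. It was the 1 gene of the 8 whose DE+PFD libraries all lay above DE, against 5.89% of all genes. Its log2 fold change was 0.35 ± 0.20 (SE), with an unadjusted p of 0.0997 and an adjusted p of 1.00 by edgeR, and 0.20 without DE 1. Srebf2 averaged 148.0 ± 18.6 CPM in DE+PFD lungs and 134.3 ± 16.7 CPM in DE lungs (SD, n = 3 each). None of the 8 had an unadjusted p under 0.05, against 1.22% of all genes higher and 1.6% lower.

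In RIC+DE, conditioned before the exposure, Lss had the highest estimate. Its levels were 47.0, 28.9 and 33.7 CPM in the RIC+DE libraries, against 21.9, 22.2 and 25.0 CPM in the DE libraries. The groups did not overlap, and the log2 fold change was 0.56 ± 0.35 (SE), with an adjusted p of 0.376 by edgeR. Srebf2 had 158.2, 153.4 and 176.9 CPM in the RIC+DE libraries, against 139.8, 115.5 and 147.5 CPM in the DE libraries, also without overlap. With Insig1, 3 of the 8 genes had all RIC+DE libraries above all DE libraries, against 21.0% of all genes. None of the 8 had an unadjusted p under 0.05, against 7.79% of all genes higher and 9.4% lower. These groups share no date, so the values rest on the date term estimated from the other groups. For Insig1 that term turned the sign: it averaged 80.5 ± 11.3 CPM in RIC+DE lungs and 65.4 ± 2.68 CPM in DE lungs, with a log2 fold change of -0.16 ± 0.29 (SE), and of 0.30 with no date term. The median log2 fold change of the 8 was 0.35 without RIC+DE 2 and 0.00 without RIC+DE 3. Over the alternatives run, the estimate for Lss was lowest without RIC+DE 1, at 0.33, and reached 0.75 at its highest.

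Summed levels of the 5 skeletal muscle markers tested were 26.3, 983.4 and 1816 CPM from the lowest to the highest RIC+DE library, against 27.8 to 47.5 CPM in DE libraries. Alveolar type 2 markers summed to 13320 to 26000 CPM in RIC+DE libraries and to 31040 to 43300 CPM in DE libraries. Single markers of that list differed. Relative to DE, the log2 fold change was -1.20 ± 0.48 (SE) for Sftpc and -0.06 ± 0.24 (SE) for Etv5. It was -0.02 ± 0.30 (SE) for Slc34a2 and 0.12 ± 0.27 (SE) for Abca3. RIC+DE 1 had the highest muscle sum and the lowest alveolar type 2 sum of all 24 libraries. All 14 ribosomal protein genes and all 9 mitochondrially encoded mRNAs had log2 fold changes below 0 in RIC+DE relative to DE, with medians of -1.15 and -1.47. Of these, 14 ribosomal protein genes and 8 mitochondrial mRNAs had an unadjusted p under 0.05, against 9.4% of all genes lower. All 9 T and B cell markers were also below 0, with a median of -1.20, and 6 had an unadjusted p under 0.05. Of 10 alveolar macrophage markers 8 were below 0, with Marco, a scavenger receptor, at -3.20 ± 0.68 (SE) and an adjusted p of 0.241 by edgeR. Marco alone of that list had an unadjusted p under 0.05. Chil3 and Mrc1 were above 0, at 0.54 ± 0.48 and 0.22 ± 0.27 (SE). The part of these lists in the levels of the 8 genes was not tested.

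In DE+RIC, conditioned during the exposure, all 8 estimates were above 0. Cyp51 had 45.6, 36.3 and 46.5 CPM in the DE+RIC libraries, against 23.9, 33.3 and 32.5 CPM in the DE libraries. It was the 1 gene of the 8 without overlap, against 6.31% of all genes, and its log2 fold change was 0.46 ± 0.22 (SE), with an adjusted p of 1.00 by edgeR. Because DE+RIC 3 alone is from November, it takes up a date term of its own and does not enter these estimates. The 2 that remain differed in every member: Hmgcs1 had 108.4 CPM in DE+RIC 1 and 62.9 CPM in DE+RIC 2, and Sqle had 50.3 CPM in DE+RIC 1 and 33.1 CPM in DE+RIC 2. DE+RIC 2 had the lowest value of its group for 8 of 8 genes. The median log2 fold change relative to DE was -0.14 without DE+RIC 1 and 0.44 without DE+RIC 2. None of the 8 had an unadjusted p under 0.05, against 0.658% of all genes higher and 2.56% lower.

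In RIC+DE+PFD all 8 estimates were above 0, and the groups overlapped for all 8 genes, while 5.55% of all genes were higher and 6.41% lower without overlap. Insig1 had 151.2, 76.5 and 51.2 CPM in the RIC+DE+PFD libraries, against 66.4, 62.4 and 67.5 CPM in the DE libraries. The highest of all 24 values was in RIC+DE+PFD 1, the library that stood apart, and RIC+DE+PFD 3 was below the whole DE group. Fdft1 had 78.6, 53.8 and 34.3 CPM in the RIC+DE+PFD libraries, with the same order of libraries, against 51.1, 54.9 and 45.5 CPM in the DE libraries. Srebf2 had the reverse in that library: 104.0, 188.4 and 136.4 CPM in the RIC+DE+PFD libraries, against 139.8, 115.5 and 147.5 CPM in the DE libraries. In RIC+DE+PFD 1, alveolar type 2 markers summed to 92650 CPM, against 34790 and 38020 CPM in the other RIC+DE+PFD libraries. That library also had the highest sums of all 24 for ribosomal protein genes, 40970 CPM against 10990 and 11830 CPM in the other 2 of its group, and for mitochondrially encoded mRNAs, 33620 CPM against 13050 and 10200 CPM. The part of these sums in the levels of the 8 genes was not tested. The TMM factor of RIC+DE+PFD 1, 0.638, was the lowest of the 24, and a low factor raises every CPM of a library. The place of Insig1 as the highest of the 24 depends on it. Relative to total counts alone, Insig1 was higher in RIC+DE 1 (1395 of 13483886) than in RIC+DE+PFD 1 (1177 of 12224106). Without RIC+DE+PFD 1 and DE 1 the median log2 fold change was 0.00, and without RIC+DE+PFD 2 it was 0.02. Without RIC+DE+PFD 3 it was 0.40. None of the 8 had an unadjusted p under 0.05, against 3.98% of all genes higher and 5.52% lower.

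In DE+PFD+RIC, Srebf2 had 171.2, 192.7 and 186.3 CPM, against 139.8, 115.5 and 147.5 CPM in the DE libraries. Its mean was 183.4 ± 11.0 CPM in DE+PFD+RIC lungs and 134.3 ± 16.7 CPM in DE lungs (SD, n = 3 each). The log2 fold change was 0.53 ± 0.21 (SE), with an unadjusted p of 0.0205 and an adjusted p of 0.529 by edgeR. Over the alternatives run, its adjusted p was 0.296 to 0.856 and its log2 fold change 0.43 to 0.59. It was the 1 gene of the 8 with an unadjusted p under 0.05, against 4.85% of all genes higher and 4.29% lower. Idi1 averaged 14.7 ± 1.44 CPM in DE+PFD+RIC lungs and 9.17 ± 2.66 CPM in DE lungs, with no overlap. Its log2 fold change was 0.37 ± 0.31 (SE), and -0.05 without DE+PFD+RIC 3, the one October library of that group. With Sqle, Cyp51 and Insig1, 5 of the 8 genes had all DE+PFD+RIC libraries above all DE libraries, against 15.4% of all genes. These counts carry no adjustment for date, and 2 of the DE+PFD+RIC libraries are from March and all DE libraries from October. With the date in the model the log2 fold change of Sqle was 0.07.

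Fdft1 and Insig1 had estimates below 0 in the same comparison. Fdft1 averaged 42.9 ± 2.59 CPM in DE+PFD+RIC lungs and 50.5 ± 4.73 CPM in DE lungs, and its log2 fold change was -0.32 ± 0.25 (SE). Insig1 averaged 74.3 ± 1.26 CPM in DE+PFD+RIC lungs and 65.4 ± 2.68 CPM in DE lungs, with a log2 fold change of -0.11 ± 0.26 (SE) with the date in the model and 0.18 without it. The median of the 8 genes was 0.06 without DE+PFD+RIC 3.

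Among the other genes of the pathway, none passed at an adjusted p under 0.05 by edgeR in the 5 comparisons with DE. Of the 14 other enzymes, 2 had an unadjusted p under 0.05 and a higher level in DE+PFD+RIC than in DE, against 4.85% of all genes. In RIC+DE+PFD the count was 3, against 3.98% of all genes. Pmvk, the phosphomevalonate kinase, led these 3 with 0.87 ± 0.27 (SE) on the log2 scale and an adjusted p of 0.357 by edgeR. Summed levels of the 14 other enzymes were 500.3, 669.1 and 883.5 CPM from the lowest to the highest RIC+DE+PFD library. In DE libraries they were 463.8 to 559.2 CPM. The highest sum was that of RIC+DE+PFD 1, the library that stood apart. The part of that library in the count of 3 was not tested. Scap, the escort of the SREBP proteins, had log2 fold changes relative to DE of 0.43 ± 0.15 (SE) in RIC+DE+PFD and 0.34 ± 0.16 (SE) in DE+PFD+RIC. In RIC+DE, Abca1, which exports cholesterol, had 1.01 ± 0.37 (SE) on the log2 scale. Of the fatty acid genes, Scd1, a desaturase, had -1.25 ± 0.39 (SE) in RIC+DE+PFD relative to DE.

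Conditioning added to pirfenidone was set against pirfenidone in exposed mice. The median log2 fold change of the 8 genes was 0.03 in RIC+DE+PFD and 0.02 in DE+PFD+RIC, both relative to the same 3 DE+PFD libraries, and 4 of 8 estimates were above 0 in each. In RIC+DE+PFD it was -0.06 without RIC+DE+PFD 1, -0.15 without RIC+DE+PFD 2 and 0.24 without RIC+DE+PFD 3. In DE+PFD+RIC it was 0.12 within the October libraries alone. Srebf2 had 171.2, 192.7 and 186.3 CPM in the DE+PFD+RIC libraries, against 147.9, 166.7 and 129.4 CPM in the DE+PFD libraries. The groups did not overlap, against 6.46% of all genes with all DE+PFD+RIC libraries higher. The log2 fold change was 0.35 ± 0.20 (SE), with an unadjusted p of 0.0898 and an adjusted p of 0.905 by edgeR. Fdft1 lay below without overlap, against 5.36% of all genes, with 42.1, 40.8 and 45.8 CPM in the DE+PFD+RIC libraries and 51.2, 47.4 and 53.3 CPM in the DE+PFD libraries. In RIC+DE+PFD relative to DE+PFD the groups overlapped for all 8 genes, while 5.88% of all genes were higher and 6.99% lower without overlap.

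By edgeR 0 of the 8 genes passed at an adjusted p under 0.05 in these 2 comparisons, as did 0.0% of all genes, and 0 of the 8 had an unadjusted p under 0.05. The share of all genes with an unadjusted p under 0.05 was 17.3% in RIC+DE+PFD and 4.21% in DE+PFD+RIC. DESeq2 called 139 genes in RIC+DE+PFD and 5 in DE+PFD+RIC, with 0 of the 8 in either. Of the 11 fatty acid synthesis genes, 5 had an unadjusted p under 0.05 and a lower level in RIC+DE+PFD than in DE+PFD, led by Scd1 at -1.62 ± 0.38 (SE) on the log2 scale with an adjusted p of 0.164 by edgeR. Their median was -0.52, beside 0.03 for the 8 sterol genes, and that difference was not tested.

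The timing of conditioning was compared between DE+RIC and RIC+DE, which share no date. The 8 genes had a median log2 fold change of 0.13 in DE+RIC relative to RIC+DE, with 5 estimates above 0. Lss averaged 28.7 ± 7.25 CPM in DE+RIC lungs and 36.5 ± 9.38 CPM in RIC+DE lungs (SD, n = 3 each), with a log2 fold change of -0.37 ± 0.37 (SE). Sqle averaged 44.1 ± 9.54 CPM in DE+RIC lungs and 37.7 ± 8.06 CPM in RIC+DE lungs, with 0.38 ± 0.30 (SE). The groups overlapped for all 8 genes, while 20.0% of all genes were higher and 18.8% lower without overlap. Of the 8 genes, 0 passed by edgeR (0.0% of all genes did), and 0 had an unadjusted p under 0.05, against 13.7% of all genes. The median was -0.22 without DE+RIC 1 and 0.38 without DE+RIC 2. DESeq2 called 122 genes and 0 of the 8.

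Whether conditioning acted differently with and without pirfenidone, or in exposed and healthy mice, was tested as 3 interactions. By edgeR 0 of the 8 genes passed at an adjusted p under 0.05 in any, as did 0.0% of all genes. The smallest unadjusted p was 0.0956, for Cyp51 with conditioning during the exposure: its log2 fold change with pirfenidone minus that without was -0.52 ± 0.30 (SE). The shares of all genes with an unadjusted p under 0.05 were 27.2% for conditioning before the exposure, with pirfenidone against without, 2.67% for conditioning during it, and 5.95% for conditioning before the exposure against conditioning in healthy mice.

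The date of the library was estimated in the same model. Idi1 was 10.0 to 17.5 CPM with a median of 15.4 in the 9 March libraries, and 6.24 to 15.6 CPM with a median of 10.1 in the 14 October libraries. Its log2 difference between March and October, within groups, was 0.51 ± 0.19 (SE), with an unadjusted p of 0.0126 and an adjusted p of 0.209 by edgeR. Insig1 was 68.1 to 151.2 CPM with a median of 83.1 in March, and 51.0 to 87.5 CPM with a median of 69.3 in October. Its log2 difference was 0.46 ± 0.16 (SE), with an unadjusted p of 0.00898 and an adjusted p of 0.183. The 2 genes of the 8 with an unadjusted p under 0.05 stand beside 7.72% of all genes higher in March. At an adjusted p under 0.05, edgeR called 0 of the 8 and 1 of all genes (0.00572%), and DESeq2 called 513 genes and 0 of the 8.

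The levels of the 8 genes went together between libraries, also between libraries of 1 group. In RIC+DE 2 and in DE+RIC 2, all 8 had the lowest value of their group, and in RIC 3 and RIC+DE+PFD 3 this held for 7 of the 8. How many of all genes were lowest in these libraries was not counted, here or above. These ranks alone therefore do not set the 8 genes apart from other genes. The summed level of the 8 was 351 CPM in the lowest library, RIC+DE+PFD 3, and 566 CPM in the highest, RIC 1. Correlations were computed on log2 CPM with the mean of each date subtracted, over 23 libraries, since the November library becomes 0 by construction. P-values came from 100000 permutations within dates, adjusted over the 28 pairs. Libraries share treatment groups, so these values describe variation from groups and from single lungs together.

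The median Pearson r over the 28 pairs was 0.484, and 26 of the 28 were above 0. The median r of each gene with the 17482 other genes tested was between -0.02 and 0.04. Of the 28 pairs, 13 had an adjusted permutation p under 0.05 for both Pearson's r and Spearman's rho. The highest was that of Fdft1 and Insig1 (r = 0.891, permutation p 1e-05, rho = 0.756, permutation p 0.0001), where 1e-05 is the smallest p these permutations can give. The adjusted values were 0.00021 for r and 0.00067 for rho. Without the 2 libraries farthest from the median of Fdft1 the r was 0.810. Sqle and Cyp51 had r = 0.807 (permutation p 3e-05, adjusted 0.00021) and rho = 0.617 (permutation p 0.0033, adjusted 0.0071), with r = 0.673 without the 2 farthest libraries. Hmgcs1 and Lss had r = 0.785 (permutation p 2e-05, adjusted 0.00021) and rho = 0.799 (permutation p 1e-05, adjusted 0.00014), with r = 0.712 without the 2 farthest.

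**Figure D3:**
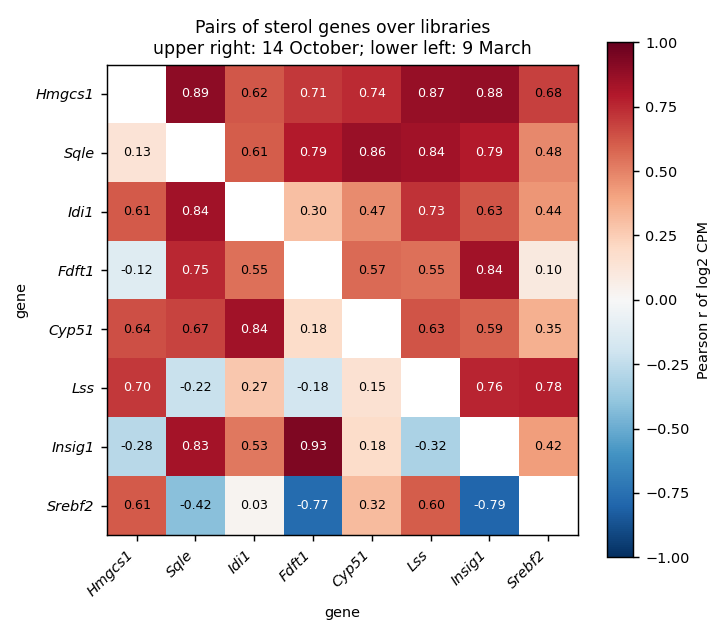
Pearson correlations of log2 CPM between the 8 genes, over the 14 October libraries (upper right) and the 9 March libraries (lower left). In October all 28 pairs are above 0, whereas in March 20 of the 28 are.

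Within the 14 October libraries the median r was 0.656 and 28 of 28 pairs were above 0. Hmgcs1 and Sqle had r = 0.894 there, Hmgcs1 and Insig1 0.876, and Hmgcs1 and Lss 0.875. Within the 9 March libraries the median r was 0.295, with 20 of 28 above 0. Hmgcs1 and Insig1 had r = -0.28 in March, and Insig1 and Srebf2 had r = -0.79. In TMM-scaled CPM, Insig1 and Fdft1 were at their highest in RIC+DE+PFD 1, and Srebf2 was at its lowest. Left without RIC+DE+PFD 1, the 8 March libraries gave a median r of 0.552 with 26 of 28 pairs above 0. Hmgcs1 and Insig1 then had r = 0.584. Over both dates without RIC+DE+PFD 1 and DE 1, the median was 0.649 and 27 of 28 pairs were above 0.

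Srebf2 went least with the others. Its median r with the other 7 genes was 0.291, against 0.664 for Sqle, 0.647 for Hmgcs1, 0.551 for Idi1, 0.431 for Cyp51 and for Lss, 0.408 for Insig1 and 0.366 for Fdft1. It followed Lss (r = 0.690, permutation p 0.00032, adjusted 0.00128, rho = 0.739, permutation p 0.00012, adjusted 0.00067). It also followed Hmgcs1 (r = 0.647, permutation p 0.00073, adjusted 0.0026, rho = 0.673, permutation p 0.00085, adjusted 0.0024). Without the 2 farthest libraries the r values were 0.548 and 0.594. With Fdft1 it had r = -0.35 (permutation p 0.126, adjusted 0.153, rho = -0.20, permutation p 0.370), which was -0.02 without RIC+DE+PFD 1 and DE 1.

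The other genes tested were ranked by their correlation with the mean of the 8, each scaled to the same spread. Of 11907 protein-coding genes with a mean of at least 5 CPM, Sc5d came first, with r = 0.731 and rho = 0.671 over 23 libraries. Sc5d is a desaturase late in cholesterol synthesis. Stard4, a carrier of cholesterol between membranes, had r = 0.692 and rho = 0.661, and Dhcr7, which catalyses the last step of one branch of the pathway, was also among them with r = 0.670 and rho = 0.633. Lif, a cytokine, had r = 0.703 and rho = 0.629, at a mean of 5.016 CPM, close to the limit of 5 CPM. Epha1, a receptor tyrosine kinase, had r = 0.690 and rho = 0.794, with r = 0.257 in March and 0.815 in October. Tmem43, a membrane protein, had r = 0.635 and rho = 0.548, and Smo, the signal transducer of the hedgehog pathway, r = 0.621 and rho = 0.616. These genes were picked as the highest of the ranking, so the values carry no test.

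**Figure D4:**
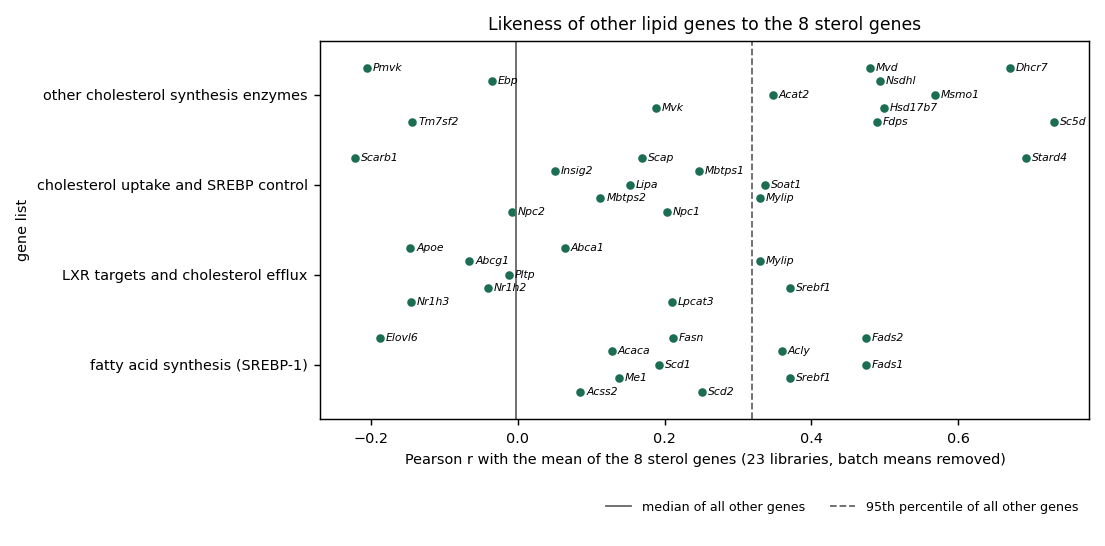
Pearson correlation of each listed gene with the mean of the 8 sterol genes over 23 libraries, on log2 CPM with batch means removed, with 1 row of points per gene list. Vertical lines mark the median and the 95th percentile (0.319) of all other genes tested, and genes not reported here have no point. Over the whole lists, other enzymes of cholesterol synthesis have a median of 0.491, and LXR targets and efflux genes a median of -0.01.

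By list, the median r with the mean of the 8 was 0.491 over the 14 other enzymes of cholesterol synthesis, with 11 of the 14 above 0 in March and in October. Msmo1, a sterol oxidase, had 0.568 and Hsd17b7 0.498. At the other end were Ebp, the sterol isomerase, at -0.03, Tm7sf2, a sterol reductase, at -0.14 and Pmvk at -0.21. The median was 0.186 over 12 genes of uptake and SREBP control, in which Stard4 was the highest and Scarb1, a lipoprotein receptor, the lowest at -0.22. It was 0.212 over 11 fatty acid synthesis genes, with Fads2 at 0.474 and Fads1 at 0.474, both fatty acid desaturases, and Fasn, the fatty acid synthase, at 0.212. Fads2 had 0.679 in October and -0.10 in March, and Fads1 0.671 and -0.02. Over 9 LXR targets and efflux genes the median was -0.01. Above 0 in March and in October were 3 of the 12 uptake and control genes. The same held for 6 of the 11 fatty acid genes and 2 of the 9 LXR and efflux genes. The median over the 17482 other genes tested was 0.00, and the 95th percentile was 0.319.

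Other quantities went with the mean of the 8 genes to differing degrees, and their part in its variation was not tested. The logarithm of total count had r = 0.286 and rho = 0.345 with it. Summed markers of proliferating cells had r = -0.48, of alveolar type 2 cells 0.255, of adipocytes -0.01, of alveolar macrophages 0.10, of T and B cells -0.01, of fibroblasts 0.163 and of capillary endothelium -0.14. Ribosomal protein genes had r = -0.09 and mitochondrially encoded mRNAs 0.00. The summed level of 8 proliferation markers ranged from 34.6 CPM in RIC+DE+PFD 2 to 77.8 CPM in DE 1.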

How the data were processed

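Reads were trimmed with fastp 0.23.4, aligned to GRCm39 with STAR 2.7.11b and counted per gene with featureCounts, per the submitters' processing notes, which also name FastQC 0.12.1, R 4.4.1 and DESeq2. The authors deposited raw counts, with no scaling, of 78275 genes. How strand and reads with more than 1 match were treated is not given in the sources used, so genes that overlap others carry uncertain counts. Gene identifiers were matched to an annotation on GRCm38 for symbols and exon lengths. Promoters came from RefSeq on GRCm38.p6.

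Counts were tested with edgeR 4.0.16 in R 4.3.3: its filter on low counts (17490 genes left), TMM scaling, and a quasi-likelihood model of all 24 libraries with terms for date and group. P-values were adjusted by Benjamini-Hochberg over all genes tested, with a threshold of 0.05. DESeq2 1.42.0 was run as an alternative on all genes with a count. Standard errors are from the model, and log2 CPM used a prior count of 2. Total counts ran from 3906807 to 18494156 per library, and a member had at least 26 reads in each. The edgeR fit was tried on simulated counts with known changes for DE relative to C. The correlations with date means subtracted were tried on simulated libraries. These trials held no permutations, so the permutation p-values were not checked by them. No 2 libraries of a group were copies: chi-square per gene between them was at least 5.28.

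The 8 genes and the 14 other lists were chosen with earlier results of these data known. All 8 genes are named, and per comparison up to 2 genes of each other list with the smallest p. The 8 genes most like the mean of the members were to be named by rule. Genes that either rule names but the text leaves out are not reported here. Genes named for their place in a list's range of correlations, the interactions, and the correlations without RIC+DE+PFD 1 or DE 1 were chosen after values were seen.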

Additional observations from a re-analysis of the deposited data

How the results depend on the processing

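Each count of members called was recomputed under 35 alternatives: DESeq2, its size factors in edgeR, other filters on low counts, other treatments of the date and choices of libraries, a replicate block (with the date term or in its place), both libraries that stood apart left out, and each library left out in turn. Of 412 such counts, 1 differed from 0: RIC+DE relative to DE fitted on the libraries of those groups alone, which share no date, so that no date term could be used: 1 member was called there, Lss, with a log2 fold change of 0.68 and an adjusted p of 0.0293 by edgeR, among 3833 genes called in all. With each library left out in turn the count of members called was 0 to 0 in each comparison. Of 3032 member fold changes, 39 moved by more than the replicate SD and 152 took the other sign. As no member was called in the main fit, no such change could undo a call. Some fits could not be made: October libraries alone hold no RIC+DE library, and March against October needs the date term.

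No clear sign was found that the replicate numbers pair the libraries, and with groups of 3 pairing is not excluded. In 0 of the 10 comparisons did every same-numbered pair correlate above 0.1, and 8 of 24 libraries matched best with their own number in other groups. With the replicate block 0 members were called, with or without the date. DESeq2 called more genes than edgeR in each comparison, 2 to 1051 against 0 to 1, and none of the 8 members. The cause was not tested. With groups of 3, leaving out 1 library of a pair that differ, as in DE+RIC, moved the median of the 8 by more than its size. The shallowest library had 3906807 counts, which limits Idi1 most.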
